A study of Homo sapiens with 4 samples.

Results

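WNT proteins are secreted, lipid-modified ligands that bind frizzled receptors on the cell surface. Together with the co-receptors LRP5 and LRP6 they keep the breakdown of β-catenin in check, so that β-catenin reaches the nucleus and acts with the TCF/LEF factors (canonical signalling), while other ligands, WNT5A foremost, act through frizzled receptors and the kinases ROR1 and ROR2 without β-catenin. Secreted antagonists such as the DKK and SFRP proteins and the cell's own feedback genes, among them AXIN2, limit the signal, and in the prostate the pathway is known for its part in epithelial growth and in resistance to androgen deprivation. A panel of 51 WNT genes, fixed by symbol and found in the count files by Ensembl identifier, was followed here out of 60880 listed genes. It holds 18 ligands, 10 frizzled receptors, 8 co-receptors and members of the R-spondin system, 6 secreted antagonists, 5 cytoplasmic components and 4 TCF/LEF factors.

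RNA-Seq was available for 4 libraries of human prostate cancer cells. The parental LNCaP95 cells (2 libraries, replicates 1 and 2, WT for UGT2B17) descend from LNCaP and grow in an androgen-independent manner. LN95(KO) (2 libraries, replicates 3 and 4) carries a CRISPR knockout of UGT2B17, an enzyme that conjugates androgens to glucuronic acid. All cells received charcoal-stripped serum and no treatment, and the comparison asks which genes differ when UGT2B17 is lost. The sample labels name LN95 as the line of all libraries, and the paper describes the knockout line as made from LNCaP95 cells. The series text instead names LNCaP for the knockout, and only under that wording would the parental line differ too. How many knockout clones the line stands for was not stated, so the knockout and the history of the derived line cannot be told apart. Nothing in the labels says that the libraries of a group came from separate cultures, so the p-values measure only the spread between these libraries, which may be technical.

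The libraries held 17330338 to 18813193 reads on genes. Unaligned reads took 3.85% and 3.96% of the parental and 8.05% and 7.71% of the knockout libraries, and the part of this difference in the results was not tested. UGT2B17, the targeted gene, went from 2788 and 2748 reads in the parental libraries to 21 and 20 in the knockout libraries, and so was lower in the libraries labelled KO (log2 fold change −7.04, SE 0.10, adjusted p = 1.18e-18, quasi-likelihood test of edgeR). All 9 markers of prostate luminal cells stood at 1 CPM (counts scaled to library size with TMM factors) or more in every library, with a summed level of 3157 to 3171 CPM in LNCaP95 and 3218 to 3358 CPM in LN95(KO). None of the 4 basal markers did so (summed 0.163 to 0.218 CPM against 1.13 to 1.53 CPM), and the defining markers CDH5 (endothelium), CD3E and CD68 (leukocytes), DCN (fibroblasts) and CHGA (neuroendocrine cells) had 0 reads in every library. For CD68, 85.6% of the exon bases lie under exons of other genes, where reads are left out of the count, so its 0 reads say little. Of 8 fibroblast and smooth muscle markers, 2 stood at 1 CPM or more in every library, with a summed level of 34.9 to 36.0 CPM against 39.0 to 42.4 CPM. The 2 endothelial markers found summed to 0.433 to 0.437 CPM against 2.77 to 3.18 CPM (VWF had 8 and 8 reads against 49 and 58). In bulk RNA, fewer cells of a type and less RNA per cell cannot be told apart, and the part of these shifts in the results was not tested.

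The WNT panel differed between the lines in its ligands, receptors and antagonists. In LN95(KO), WNT5A, WNT10A and WNT9A fell, the frizzled receptors FZD4, FZD5 and FZD9 and the R-spondin receptor LGR4 rose, FZD3 and FZD6 fell, and the antagonists SFRP1 and NOTUM fell. Of the 51 members, 31 passed the filter on low counts and were tested. Calls required both an adjusted p under 0.05 and more than a 2-fold change, and 11 members met them (4 higher and 7 lower), 35.5% of those tested. Among them, FZD9 passed the filter through its knockout libraries alone and NOTUM through its parental libraries alone, and WNT9A lay close to the 2-fold limit. Across all 15626 genes tested, 18.0% were called, 8.86% higher and 9.13% lower. At any fold, 22 members passed the adjusted p (71.0%; 8 higher and 14 lower), against 59.8% of all genes (29.8% higher and 30.1% lower). The median log2 fold change was −0.27 over the tested members and −0.01 over all tested genes. By the working definition of expression, at least 1 CPM in both libraries of a group, 30 members were expressed, 28 of them in LNCaP95 and 30 in LN95(KO). WNT3 and FZD9 made the difference.

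**Figure D1:**
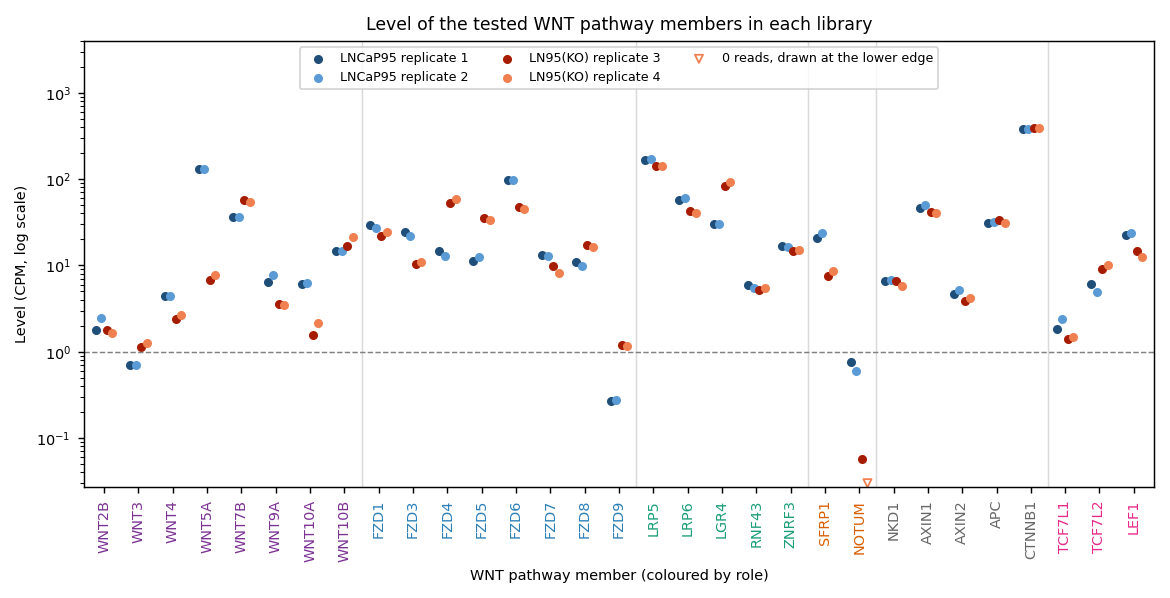
Level of each of the 31 tested WNT members in CPM on a log axis (vertical) against the member, ordered and coloured by role (horizontal), with 1 point for each of the 4 libraries. The dashed line marks 1 CPM; the 2 blue LNCaP95 points and the 2 red LN95(KO) points lie far apart for WNT5A (130 against 7.22 CPM on average) and close together for CTNNB1 (382 against 393 CPM).

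Ligands came first in the panel. Of the 18 ligand genes, 8 were tested, 3 were called lower and none higher, against a background of 9.13% called lower. WNT5A, the ligand best known for signalling without β-catenin, lies on the minus strand at chr3:55499743-55524567 (GRCh37). It had 2417 and 2376 reads in LNCaP95 and 119 and 141 in LN95(KO). Both parental libraries were far above both knockout libraries. The mean level fell from 130 ± 0.869 to 7.22 ± 0.709 CPM (SD, n = 2 per group), 18.0-fold (log2 fold change −4.17, SE 0.08, adjusted p = 2.98e-17, edgeR).

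WNT10A, a ligand needed for tooth and hair development, had 112 and 114 reads in LNCaP95 and 28 and 39 in LN95(KO). The groups did not overlap, and the level went from 6.15 ± 0.11 to 1.86 ± 0.393 CPM (log2 fold change −1.72, SE 0.20, adjusted p = 9.98e-07, edgeR). WNT9A, which takes part in joint formation, had 120 and 141 reads against 63 and 63. Its change lay close to the 2-fold limit (7.10 ± 0.846 to 3.51 ± 0.0758 CPM, log2 fold change −1.02, SE 0.17, adjusted p = 5.15e-05, edgeR). Scaling by library totals put it at −0.96, leaving out LN95(KO) replicate 4 at −0.99 and leaving out LNCaP95 replicate 2 at −0.89, all under 2-fold.

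The other tested ligands moved less. WNT4, known from development of the kidney and the female reproductive tract, had 81 and 81 reads against 42 and 49 (log2 fold change −0.80, adjusted p = 0.00194 in edgeR and 0.0750 in DESeq2). WNT7B, a ligand of lung and kidney development that acts through β-catenin, had 671 and 664 reads against 1008 and 991. It rose by less than 2-fold (log2 fold change 0.62, adjusted p = 4.14e-07, edgeR). WNT10B, a ligand that favours bone over fat, had 271 and 266 reads against 294 and 384 (log2 fold change 0.37, adjusted p = 0.00971, edgeR). Its rise rested on LN95(KO) replicate 4, without which the log2 fold change was 0.19 with an adjusted p of 0.171 in edgeR. WNT2B (33 and 45 reads against 32 and 30, log2 fold change −0.30) and WNT3 (13 and 13 against 20 and 23, log2 fold change 0.75, adjusted p = 0.0713, edgeR) did not pass.

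The remaining 10 ligands were not tested. WNT1 and WNT2 had 0 reads in all libraries, and the highest count among the others was 20. That count belonged to WNT8B, a ligand of the embryonic forebrain, which had 2 and 2 reads in LNCaP95 and 8 and 20 in LN95(KO). When the filter was lifted it was called higher (log2 fold change 2.76, SE 0.67, adjusted p = 0.000173, edgeR), while its knockout libraries differed by more than 2-fold from each other. WNT3A, the ligand most used to trigger canonical signalling in culture, had 2 and 4 reads against 4 and 1. WNT5B, the closest relative of WNT5A, had 2 and 7 against 1 and 1.

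Levels between genes were compared per kb of merged exons. The summed ligand level was 36.3 ± 0.177 CPM per kb in LNCaP95 and 22.1 ± 1.28 CPM per kb in LN95(KO) (SD, n = 2 per group). Without WNT5A the sum was 18.1 ± 0.299 in LNCaP95 and 21.1 ± 1.18 in LN95(KO). WNT5A made up 50.2% of the ligand level in LNCaP95 and 4.56% in LN95(KO). In LN95(KO) the first place went to WNT7B, whose share was 19.7% in LNCaP95 and 49.7% in LN95(KO), followed by WNT10B with 15.5% and 32.6%. These sums are descriptions of RNA and carry no test.

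**Figure D2:**
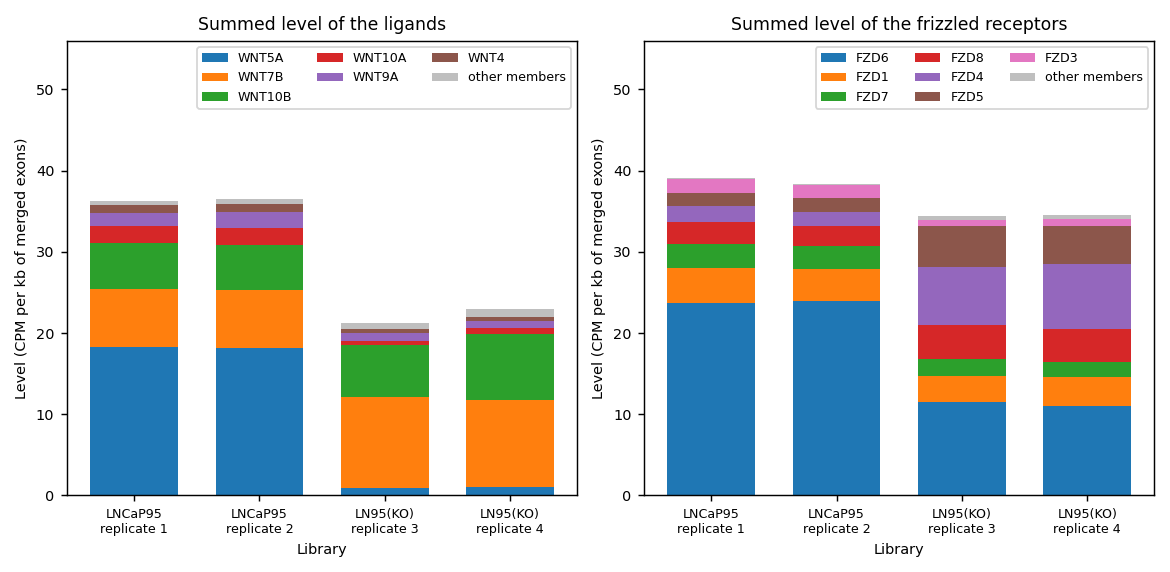
Summed level (vertical, CPM per kb of merged exons) of the 18 ligands on the left and of the 10 frizzled receptors on the right, stacked by gene, with 1 bar for each of the 4 libraries (horizontal). WNT5A (lowest blue block) takes 50.2% of the ligand bar in LNCaP95 and 4.56% in LN95(KO), and FZD6 (lowest blue block) takes 61.5% and 32.7% of the frizzled bar.

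Since WNT5A had the smallest adjusted p of the panel, the 250 bases upstream of its RefSeq starts are shown. RefSeq gives this table on GRCh38.p14, a later build than that of the counts. The sequences cover chr3:55487307-55487556 for start 1 and chr3:55481399-55481648 for start 2, both on the minus strand and written 5′ to 3′. Capitals mark matches on either strand to 4 motifs, with overlapping matches allowed. The TCF/LEF motif was taken in its forms CTTTGAA, then also CTTTGAT, then also CTTTGTA and also CTTTGTT. The others were the androgen receptor half-site AGAACA, the CCAAT box, spelled by its name, and the GC box GGGCGG. A full androgen receptor element was not searched for. Start 1 holds 1 GC box and start 2 holds no match.
WNT5A start 1: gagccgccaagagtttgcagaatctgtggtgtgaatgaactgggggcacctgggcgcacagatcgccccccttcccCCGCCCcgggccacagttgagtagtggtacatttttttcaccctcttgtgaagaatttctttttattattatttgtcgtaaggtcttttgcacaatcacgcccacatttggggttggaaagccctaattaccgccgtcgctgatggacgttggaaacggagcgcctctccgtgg
WNT5A start 2: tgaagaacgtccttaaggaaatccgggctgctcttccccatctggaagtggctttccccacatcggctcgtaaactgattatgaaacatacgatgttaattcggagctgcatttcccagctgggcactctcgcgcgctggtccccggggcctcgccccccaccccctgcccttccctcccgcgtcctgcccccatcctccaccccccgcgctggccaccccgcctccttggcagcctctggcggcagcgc

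Of the 10 frizzled receptor genes 8 were tested, all 8 passed the adjusted p, and 5 were called (3 higher, 2 lower), 62.5% of those tested against 18.0% of all genes. FZD9 passed the filter on low counts through its knockout libraries alone. FZD4, a receptor for WNTs and for norrin in retinal vessels, lies on the minus strand at chr11:86656721-86666437 (GRCh37). It had 268 and 238 reads in LNCaP95 and 937 and 1080 in LN95(KO). Its level rose from 13.8 ± 1.08 to 56.1 ± 4.41 CPM (log2 fold change 2.03, SE 0.09, adjusted p = 2.08e-12, edgeR). On the opposite strand PRSS23 overlaps 18.9% of the exon bases of FZD4. Counting took no account of strand, and PRSS23 had 759 and 745 reads against 953 and 1035 (log2 fold change 0.43, adjusted p = 2.06e-05, edgeR).

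FZD5, a receptor with roles in the eye and the gut lining, had 205 and 229 reads in LNCaP95 and 618 and 612 in LN95(KO). Every knockout library was above every parental one, and the level went from 11.8 ± 0.987 to 34.2 ± 0.976 CPM (log2 fold change 1.54, SE 0.09, adjusted p = 1.93e-10, edgeR). FZD9 was scarce, with 5 and 5 reads against 21 and 21. It went from 0.272 ± 0.00148 to 1.17 ± 0.0253 CPM and so crossed 1 CPM in the knockout line alone (log2 fold change 2.08, SE 0.43, adjusted p = 0.000538, edgeR).

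FZD6, a receptor of planar cell polarity and the most abundant frizzled gene per kb in both lines, had 1781 and 1782 reads in LNCaP95 and 829 and 819 in LN95(KO). It fell from 96.9 ± 0.565 to 45.9 ± 1.39 CPM (log2 fold change −1.08, SE 0.06, adjusted p = 5.37e-11, edgeR). FZD3, its relative in planar polarity and axon guidance, had 448 and 399 reads against 183 and 202. It fell by a similar amount, from 23.0 ± 1.76 to 10.7 ± 0.516 CPM (log2 fold change −1.10, SE 0.10, adjusted p = 6.37e-08, edgeR).

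At less than 2-fold, FZD8 rose (log2 fold change 0.68) and FZD7 and FZD1 fell (log2 fold change −0.54 and −0.30). FZD8 had 204 and 180 reads against 301 and 301, and FZD7 had 246 and 237 against 174 and 150. FZD1, at 549 and 501 against 385 and 447, no longer passed the adjusted p without LN95(KO) replicate 3 or without LNCaP95 replicate 1. FZD2 had at most 3 reads in a library, and FZD10 had 0 reads in all.

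Per kb, the summed frizzled level was 38.8 ± 0.533 CPM per kb in LNCaP95 and 34.5 ± 0.0981 CPM per kb in LN95(KO), and its makeup differed. The share of FZD6 was 61.5% in LNCaP95 and 32.7% in LN95(KO). FZD4 went from 4.80% to 22.0% and FZD5 from 4.33% to 14.1%. Without FZD6 the sum was 14.9 ± 0.672 in LNCaP95 and 23.2 ± 0.439 in LN95(KO).

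**Figure D3:**
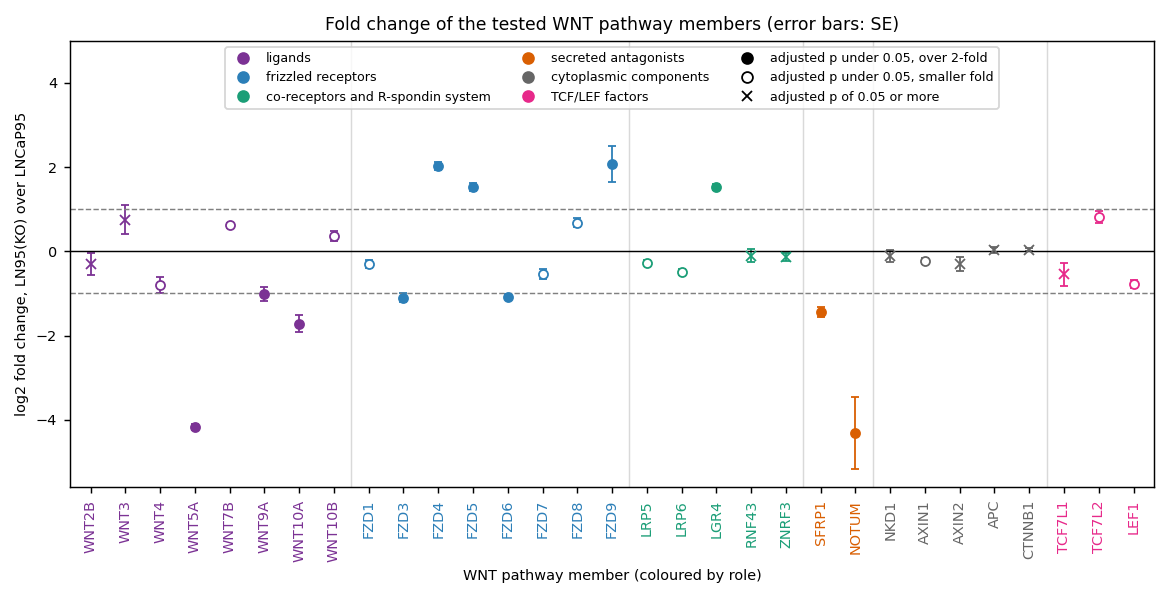
Log2 fold change of LN95(KO) over LNCaP95 (vertical, error bars SE from the edgeR fit on 2 libraries per group) for the 31 tested WNT members (horizontal, coloured by role), with dashed lines at a 2-fold change. Filled circles are the 11 called members, open circles the 11 that passed the adjusted p at a smaller fold and crosses the 9 that did not pass; WNT5A and NOTUM lie lowest and FZD4 and FZD9 highest.

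Among the co-receptors and the R-spondin system, 1 of 5 tested members was called (20%, near the 18.0% of all genes). LGR4, the receptor through which R-spondins spare frizzled proteins from degradation, had 558 and 549 reads in LNCaP95 and 1458 and 1678 in LN95(KO). It rose from 30.1 ± 0.183 to 87.2 ± 6.77 CPM (log2 fold change 1.53, SE 0.07, adjusted p = 4.62e-12, edgeR). Its intestinal stem cell relative LGR5 had 0 reads in every library, as did the ligands RSPO2 and RSPO3. LRP5, the main co-receptor here by level, had 3095 and 3168 reads against 2525 and 2565 (log2 fold change −0.27, adjusted p = 0.000177, edgeR). LRP6 had 1060 and 1096 against 753 and 747 (log2 fold change −0.49, adjusted p = 4.82e-06, edgeR). The ubiquitin ligases that remove frizzled proteins from the surface did not pass the threshold. ZNRF3 had 306 and 298 reads against 263 and 278 (log2 fold change −0.13, 95% confidence interval −0.33 to 0.08). RNF43 had 110 and 100 against 91 and 100 (log2 fold change −0.10, interval −0.43 to 0.23), and 69.0% of its exon bases lie under exons of other genes, where reads are left out of the count.

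The upstream sequences of FZD4, LGR4 and FZD5 are shown because these receptors, the best covered of those that rose, moved together. Build, orientation and the meaning of the capitals are those given for WNT5A. The window of FZD4 lies at chr11:86955396-86955645, LGR4 at chr11:27472791-27473040 and FZD5 at chr2:207769907-207770156, all on the minus strand of GRCh38.p14. FZD4 and FZD5 each hold 1 CCAAT box and 6 GC boxes, and LGR4 holds 2 CCAAT boxes. None of the 3 holds a TCF/LEF match or an androgen receptor half-site.
FZD4: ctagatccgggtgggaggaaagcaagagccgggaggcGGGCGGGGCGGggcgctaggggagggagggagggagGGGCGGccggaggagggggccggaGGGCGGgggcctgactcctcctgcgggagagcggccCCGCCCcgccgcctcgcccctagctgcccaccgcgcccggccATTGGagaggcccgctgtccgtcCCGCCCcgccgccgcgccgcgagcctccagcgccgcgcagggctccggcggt
LGR4: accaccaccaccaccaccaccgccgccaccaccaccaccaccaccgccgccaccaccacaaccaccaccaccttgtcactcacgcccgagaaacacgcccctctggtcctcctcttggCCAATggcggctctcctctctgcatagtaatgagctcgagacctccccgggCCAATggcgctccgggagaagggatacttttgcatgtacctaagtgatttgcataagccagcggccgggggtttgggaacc
FZD5: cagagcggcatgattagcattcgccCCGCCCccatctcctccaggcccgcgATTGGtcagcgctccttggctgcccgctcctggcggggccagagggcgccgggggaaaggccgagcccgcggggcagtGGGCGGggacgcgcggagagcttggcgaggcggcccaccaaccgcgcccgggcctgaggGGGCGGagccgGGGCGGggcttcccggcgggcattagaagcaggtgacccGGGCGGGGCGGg

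RefSeq held upstream sequence for 34 of the 51 members, with 42 starts. Among all 35116 such sequences of the same length, 12.0% held a TCF/LEF match and 12.4% an androgen receptor half-site. A CCAAT box was held by 32.0% and a GC box by 42.6%. Among the 42 member starts, 3 held a TCF/LEF match (DKK1, TCF7 and TCF7L2) and 7 an androgen receptor half-site. A CCAAT box was held by 14 and a GC box by 30. FZD4 and FZD5 were rich in GC (80.8% and 76.8%), against a median of 58% over all sequences. A match describes these letters only and is not a bound site.

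Secreted antagonists were scarce apart from SFRP1. The 2 that could be tested were both called lower, against 9.13% of all genes. Of these, NOTUM could be tested only because its parental libraries were high, so the share rests on SFRP1. SFRP1, a secreted protein with a frizzled-like domain that captures WNTs, had 381 and 431 reads in LNCaP95 and 134 and 157 in LN95(KO). It fell from 22.1 ± 2.04 to 8.09 ± 0.730 CPM (log2 fold change −1.45, SE 0.11, adjusted p = 7.10e-09, edgeR). NOTUM, an esterase that removes the lipid from WNT ligands and is itself switched on by β-catenin, had 14 and 11 reads against 1 and 0. The pooled ratio was 24.4-fold in favour of LNCaP95, with an exact 95% counting interval of 4.0 to 1003, and the gene stayed under 1 CPM in all libraries. It was called (adjusted p = 0.000323, edgeR), but it passed the filter on low counts through its parental libraries alone, and without LNCaP95 replicate 1 it did not pass it. DKK1, DKK3 and SFRP4 had at most 3 reads in a library, and WIF1 had 0.

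Of the cytoplasmic components, 0 of 5 were called by edgeR and by DESeq2, against 18.0% of all genes in edgeR. With 5 genes these shares cannot be told apart well. At any fold, 1 of 5 passed the adjusted p, against 59.8% of all genes, and the same 1 had an unadjusted p under 0.05. CTNNB1, which encodes β-catenin, had 7019 and 7025 reads in LNCaP95 and 6919 and 7211 in LN95(KO). The log2 fold change was 0.04 with a 95% confidence interval of −0.05 to 0.14. APC, a scaffold of the complex that marks β-catenin for breakdown, had 578 and 584 reads against 595 and 564 (log2 fold change 0.03, interval −0.13 to 0.19), and its sign depended on the scaling (−0.01 with upper quartile factors). AXIN1, the other scaffold, had 855 and 923 reads against 743 and 745. Its log2 fold change was −0.22 (adjusted p = 0.0100, edgeR), which did not pass without LN95(KO) replicate 4 or without LNCaP95 replicate 2.

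Some members are also textbook target genes of β-catenin and serve as feedback readouts. AXIN2, the most used of these, had 86 and 96 reads in LNCaP95 and 68 and 76 in LN95(KO) (log2 fold change −0.31, 95% confidence interval −0.67 to 0.06, adjusted p = 0.138, edgeR). The groups did not overlap, yet the difference did not pass, and 25.3% of its exon bases lie under other genes. NKD1, a feedback inhibitor that binds Dishevelled, had 123 and 124 reads against 118 and 106 (log2 fold change −0.11, interval −0.42 to 0.21). Of the members that serve as readouts, then, AXIN2, NKD1, RNF43 and ZNRF3 did not pass, LGR5 had 0 reads, NOTUM fell from a low level and LEF1 fell by less than 2-fold.

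None of the TCF/LEF factors, which carry β-catenin on DNA, was called by edgeR or by DESeq2, against 18.0% of all genes in edgeR. At any fold, 2 of the 3 tested passed the adjusted p, near the 59.8% of all genes, the same 2 as at an unadjusted p under 0.05. TCF7L2, the main factor of colon and many epithelia, had 111 and 89 reads in LNCaP95 and 161 and 183 in LN95(KO). It rose by less than 2-fold (log2 fold change 0.81, SE 0.15, adjusted p = 0.000153, edgeR). LEF1, more abundant per kb than TCF7L2 in both lines, had 415 and 435 reads against 259 and 226. It fell by 0.78 on the log2 scale (SE 0.10, adjusted p = 4.28e-06, edgeR). Per kb, LEF1 went from 4.31 to 2.52 CPM and TCF7L2 from 0.807 to 1.42 CPM. TCF7L1, mostly a repressor, had 34 and 44 reads against 25 and 27 (log2 fold change −0.55, adjusted p = 0.0848, edgeR). TCF7 had at most 8 reads in a library and was not tested.

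Beyond the panel, 100 further WNT pathway genes were counted, of which 73 were tested. Of these 18 were called (7 higher, 11 lower), 24.7% against 18.0% of all genes. At any fold 55 passed the adjusted p (75.3%, against 59.8% of all genes). Among the called genes, ROR2 passed the filter on low counts through its parental libraries alone and FGF18 through its knockout libraries alone. The lists were also chosen with earlier results of these data known, so these shares are descriptions only. The median log2 fold change was −0.24. The share called differed between their 4 lists, from 7 of 12 for secretion, co-receptors and alternative receptors to 4 of 40 for cytoplasmic and nuclear components, and this difference was not tested.

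In the list of secretion and receptor genes, WLS, the carrier that takes lipid-modified WNT proteins to the cell surface, had 1835 and 1818 reads in LNCaP95 and 256 and 260 in LN95(KO). It fell 6.92-fold (log2 fold change −2.79, SE 0.07, adjusted p = 1.33e-15, edgeR). PORCN, the enzyme that attaches the lipid, did not pass (log2 fold change −0.09). ROR2, a receptor kinase for WNT5A, had 34 and 31 reads against 7 and 7 (log2 fold change −2.16, adjusted p = 6.34e-05, edgeR). It passed the filter on low counts through its parental libraries alone. ROR1 went the other way, from 280 and 262 to 499 and 570 reads (log2 fold change 1.01), but fell short of 2-fold without LN95(KO) replicate 4 (0.94), without LNCaP95 replicate 2 (0.97) and with upper quartile factors (0.97). TPBG, a membrane protein that inhibits canonical signalling, had 539 and 520 reads against 39 and 49 (log2 fold change −3.55, adjusted p = 2.37e-13, edgeR). RSPO4, an R-spondin, had 149 and 160 reads against 66 and 70 (log2 fold change −1.15). LRP4 (14 and 14 reads against 32 and 35, log2 fold change 1.28) and the glypican GPC3 (72 and 48 against 132 and 111, log2 fold change 1.05) rose. LRP4 had an adjusted p of 0.0821 in DESeq2, and GPC3 stood at 0.90 without LN95(KO) replicate 3 and at 0.79 without LNCaP95 replicate 2.

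**Figure D4:**
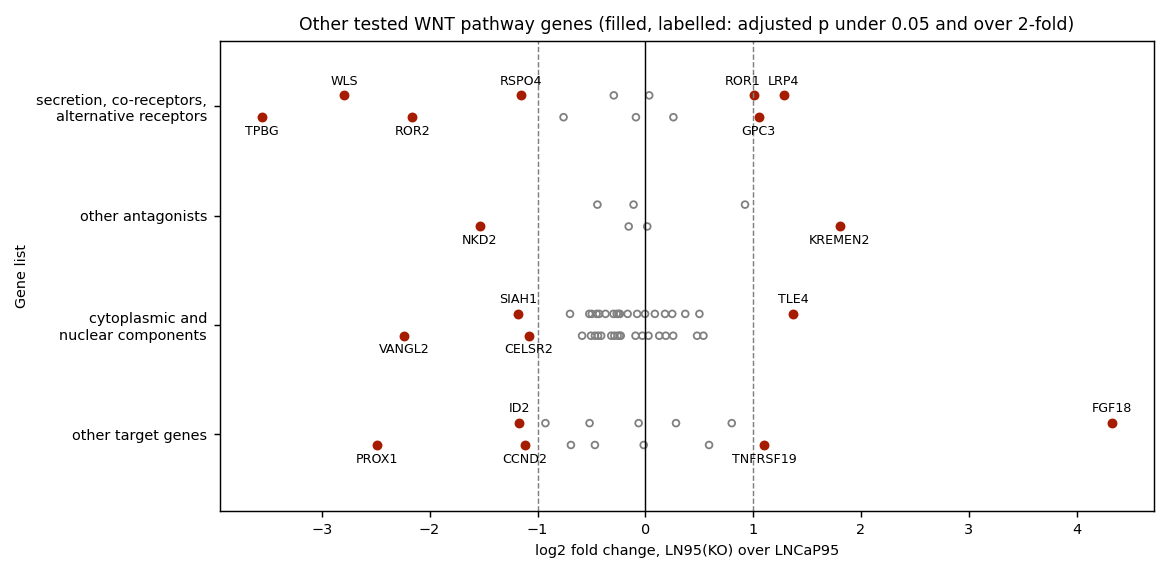
Log2 fold change of LN95(KO) over LNCaP95 (horizontal) for the 73 tested genes outside the panel, in 4 lists (vertical; points are offset up and down only for legibility), with dashed lines at a 2-fold change. The 18 called genes are filled and named; WLS, TPBG and ROR2 lie far to the left in the list of secretion and receptor genes, and most of the cytoplasmic and nuclear components lie between the dashed lines.

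Among other antagonists, 2 of 7 tested genes were called (28.6%, against 18.0% of all genes). KREMEN2, which removes LRP6 from the surface together with DKK proteins, had 33 and 22 reads against 87 and 101 (log2 fold change 1.80, adjusted p = 2.47e-06, edgeR). NKD2, the relative of NKD1, had 238 and 208 reads against 72 and 78 (log2 fold change −1.54, adjusted p = 6.60e-08, edgeR). Of the cytoplasmic and nuclear genes, the co-repressor TLE4 rose (16 and 19 reads against 47 and 42, log2 fold change 1.37). VANGL2 and CELSR2, membrane proteins of planar cell polarity, fell. VANGL2 had 152 and 148 reads against 29 and 33 (log2 fold change −2.24, adjusted p = 1.09e-08, edgeR), and CELSR2 had 1587 and 1684 against 781 and 729 (log2 fold change −1.08). SIAH1, a ubiquitin ligase that can act on β-catenin, fell (573 and 552 reads against 236 and 248, log2 fold change −1.18), with 31.4% of its exon bases under other genes. The remaining 36 tested genes of that list, including the Dishevelled and GSK3 genes, were not called. Of these, 26 passed the adjusted p at a smaller fold (7 higher, 19 lower). Among them were DVL2 (log2 fold change 0.37), DVL3 (−0.32) and GSK3B (−0.30), while DVL1 and GSK3A did not pass.

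Other target genes often used as readouts moved in both directions, with 5 of 14 tested genes called (35.7%, against 18.0% of all genes), 2 higher and 3 lower (8.86% and 9.13% of all genes). FGF18, a growth factor, had 6 and 1 reads in LNCaP95 and 70 and 72 in LN95(KO) (log2 fold change 4.33, SE 0.39, adjusted p = 4.33e-08, edgeR). The size rests on few parental reads, since the log2 fold change lay between 3.57 and 6.01 when each library was left out, and the gene passed the filter through its knockout libraries alone. TNFRSF19, a receptor of the TNF family, had 249 and 263 reads against 524 and 551 (log2 fold change 1.10). PROX1, a homeobox factor, had 65 and 74 reads against 12 and 12 (log2 fold change −2.49, adjusted p = 4.46e-07, edgeR). The cell cycle gene CCND2 (1042 and 1014 reads against 445 and 480, log2 fold change −1.12) and ID2 (675 and 639 against 289 and 281, log2 fold change −1.17), an inhibitor of differentiation factors, also fell. MYC, the best known target, had a log2 fold change of −0.02 and did not pass, and CCND1 rose by less than 2-fold (log2 fold change 0.28). At any fold, 12 of the 14 passed the adjusted p (85.7%, against 59.8% of all genes). Of these, 7 moved by less than 2-fold, 3 higher and 4 lower, among them BAMBI (log2 fold change 0.80) and EPHB3 (−0.93).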

How the data were processed

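For each of the 4 libraries the authors deposited raw, unnormalized counts per gene. The authors aligned poly(A)-selected reads to hg19 with HISAT2 (2.1.0) and counted them with HTSeq on GENCODE 29 without strand, so reads of overlapping genes are left out or cannot be separated. Entries on no single gene took 23.8% and 24.0% of the parental and 27.5% and 27.1% of the knockout files and were left out. Identifiers without a symbol (981) held 0.0575% of reads. Coordinates and exon lengths came from GENCODE 44 on GRCh37, and upstream sequences from RefSeq.

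All genes were fitted with the quasi-likelihood test of edgeR 4.0.16 (R 4.3.3; robust, TMM, no covariate) after the default filter of filterByExpr (at least 10 counts, total of at least 15), with Benjamini-Hochberg adjustment over all genes tested. No set test was run, and no permutation test could go below a two-sided p of 0.333. Errors are SD or, for log2 fold changes, SE. Counting intervals are exact at 95% and cover counting error only. DESeq2 1.42.0, other scalings, other filters, glmTreat and leaving out each library were tried as alternatives, and the script was tested on simulated counts. A count of 0 allows up to 3 reads, 0.163 to 0.169 CPM.

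The members and lists were chosen with earlier results of these data known. Called members were named with all values, other members with their counts or fold changes, and called genes of each further list by adjusted p. The summed level of the neuroendocrine markers is not reported here.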

Additional observations from a re-analysis of the deposited data

How the results depend on the processing

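With 2 libraries a group, calls rest on the spread edgeR shares across genes, and a group reduced to 1 library is assumed to vary like the other. Of 278 values of the 31 tested members under the alternatives in tool, scaling, filter and libraries (the fold criterion is treated further on), 264 kept their direction and side of the threshold, 12 kept the direction and lost the call or the adjusted p, and 2 changed sign. Both of these were APC, at −0.0090 with upper quartile factors and −0.028 to 0.093 when each library was left out, the lowest without LN95(KO) replicate 3. Under these alternatives, 25 of 31 members kept both direction and side of the threshold throughout (NOTUM was not tested without LNCaP95 replicate 1). Among the called members tested throughout, WNT9A alone lost its call. WNT4, WNT10B, FZD1 and AXIN1, which were not called, no longer passed the adjusted p in DESeq2. Of 162 values of the 18 called further pathway genes, 156 kept theirs. The number of called members was 12 in DESeq2 and without the filter (WNT8B added in each), 10 with library totals, and 10 to 12 when each library was left out. For the further pathway genes it was 17 in DESeq2 and 18 to 18 when each library was left out, and for all genes 2304 in DESeq2 and 2539 to 2777. Without the fold criterion the counts were 22 members, 55 further pathway genes and 9349 genes, since a criterion was dropped. Under glmTreat, which tests against a 2-fold change, they were 8 members (FZD3, FZD6 and WNT9A lost), 8 further pathway genes and 1687 genes. UGT2B17 ranged from −7.09 to −6.98 when each library was left out. With the length of the canonical transcript, an alternative chosen after seeing the data, the share of FZD6 was 63.5% in LNCaP95 and 34.6% in LN95(KO). No paired analysis was possible because replicate numbers 1 and 2 occur in LNCaP95 alone and 3 and 4 in LN95(KO) alone.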

Other observations

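The nearest tested genes on either side of the 11 called members, overlapping genes aside, were 22, and 3 of them were called (13.6%, against 18.0% of all genes tested), each in the direction of its member. ERC2, whose nearest end lies 17.8 kb from WNT5A, had 54 and 53 reads in LNCaP95 and 8 and 7 in LN95(KO) (log2 fold change −2.78, SE 0.32, adjusted p = 8.04e-07, edgeR). FZD4-DT, a transcript that starts 0.22 kb from FZD4 on the other strand, had 9 and 8 reads against 14 and 27 (log2 fold change 1.29, adjusted p = 0.0155, edgeR). TCIM, the nearest tested gene below SFRP1 at 1107 kb, had 42 and 41 reads against 11 and 5 (log2 fold change −2.32, adjusted p = 2.62e-05, edgeR). ERC2 passed the filter on low counts through its parental libraries alone and FZD4-DT through its knockout libraries alone. TCIM lay under that filter in LN95(KO) replicate 4, with 5 reads.

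Antisense transcripts overlap some members. WNT5A-AS1 had 62 and 76 reads in LNCaP95 and 2 and 0 in LN95(KO), and BAALC-AS1, which overlaps the start of FZD6, had 24 and 15 against 2 and 1. Exons of other genes cover 0% of the exon bases of WNT5A and 3.39% of those of FZD6, and reads on shared exon bases were left out. Without strand, reads counted for the antisense transcripts cannot be assigned to them rather than to the WNT5A and FZD6 genes.

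Several expressed ligands have a second ligand gene beside them that was all but silent. WNT10A lies 6.62 kb from WNT6, which had at most 1 read in a library, and WNT10B lies 6.59 kb from WNT1, which had 0 reads. WNT9A lies 59.1 kb from WNT3A, which had at most 4 reads. WNT3 lies 0.046 kb from WNT9B, which also had at most 4.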
